A study of Mus musculus with 10 samples.

Results

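The genes described are 16 members of the cadherin superfamily, the calcium-dependent adhesion proteins of the cell surface, in B16-F1 mouse melanoma cells. They were chosen by symbol from the 10735 genes of the deposited table: the protocadherins (Pcdh), the numbered cadherins (Cdh), and the FAT, DCHS and CELSR genes. Cdh2 was left out, as were genes lying in 3 chromosome blocks, a proximal one of chromosome 1 and the distal ends of chromosomes 2 and 8. The rule itself uses symbols and positions, not measured values. By the same rule the GENCODE annotation of GRCm38 holds 96 genes, and the 16 described here comprise 2 of 17 Cdh genes, 1 of 4 FAT genes, 1 of 3 CELSR genes, 3 of 12 protocadherins outside the clusters, 3 of 22 in the beta cluster and 6 of 22 in the gamma cluster. The remainder are not analysed here.

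RNA was sequenced from 5 libraries of B16-F1 cells, labelled wild type, and 5 of B16-F1ΔFOXC2 cells, a derivative described as deficient in FOXC2, a forkhead transcription factor, both on a C57Bl/6 background. Each culture was started from 1000000 cells in RPMI-1640 medium (10% serum) and was lysed 24 h later at about 90% confluence, at passages 5 to 10. The same protocol is given for both groups, without the density or passage of single cultures. Whether the ΔFOXC2 cells are 1 clone is not stated, so any difference between the 2 cell lines with another origin is part of every comparison, and the p-values measure the spread between cultures, which may be technical. Foxc2 itself was not analysed here, and the genotype stands as labelled. Values are FPKM, fragments scaled by transcript length and by all mapped fragments of the library, which makes levels comparable between genes of different length. Their sum was 240441 to 251273 per library. Fewer expressing cells and less RNA per cell cannot be told apart in such bulk samples.

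Cadherins bind across the gap between cells through repeated extracellular domains. Classical cadherins such as Cdh19 hold beta-catenin and p120-catenin at their cytoplasmic tail and so connect to actin, whereas protocadherins lack catenin binding and combine weaker adhesion with signalling. FAT and CELSR proteins are very large relatives that act in tissue polarity. Clustered protocadherins are best known from neurons, where each cell chooses a few promoters in the alpha, beta and gamma clusters. Melanocytes arise from the neural crest, whose cells change their cadherins as they migrate.

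Of the 16 genes, 14 averaged 0.5 FPKM or more across the 10 libraries and were tested; Pcdhga2 and Pcdhga12 did not reach it. The question was which of them are expressed at a different level where FOXC2 is present. Calls required a limma p of at most 0.05 after Benjamini-Hochberg adjustment over all 10570 tested genes, together with a difference of at least 1.5-fold, the fold named in the study's design text. By this rule 4 of the 14 were called, beside 8.62% of all tested genes. Pcdhgc3, Pcdhga3 and Pcdhga4 averaged under 0.5 FPKM in the ΔFOXC2 libraries, and Pcdhb17 did so in the wild type. These members reached the filter only through their higher group, so their being tested is not independent of the difference. Celsr2 and Pcdhgc3 rose in the wild type and Pcdh7 and Pcdhb5 fell, beside 3.65% of all genes called higher and 4.97% called lower. The Pcdhgc3 call rests on an overlapping gene cluster and on single libraries, as described with that cluster. Without a fold threshold 6 of the 14 had an adjusted p of at most 0.05, beside 41.6% of all genes, the additional ones being Cdh19 and Fat1. Groups without overlap were seen for 4 of the 14, Celsr2, Pcdh7, Pcdhb5 and Cdh19, beside 30.0% of all genes. The median log2 difference, wild type minus ΔFOXC2, was 0.04 over the 14 and 0.01 over all tested genes, with 7 members above 0 and 7 below. All log2 differences are of log2(FPKM + 0.1), which understates the change of low genes.

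The members covered a wide range of levels. Cdh19 was the most abundant by mean FPKM and lay at percentile 91.4 of all genes in the table. Pcdhgb2 followed at percentile 75.8, Fat1 at 64.9 and Pcdh7 at 49.2. The other 12 lay at or below percentile 11.5, and the depth behind their values is unknown because the table gives no counts. The median of the 14 tested members was 1.28 FPKM, against 8.21 over all tested genes.

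**Figure D1:**
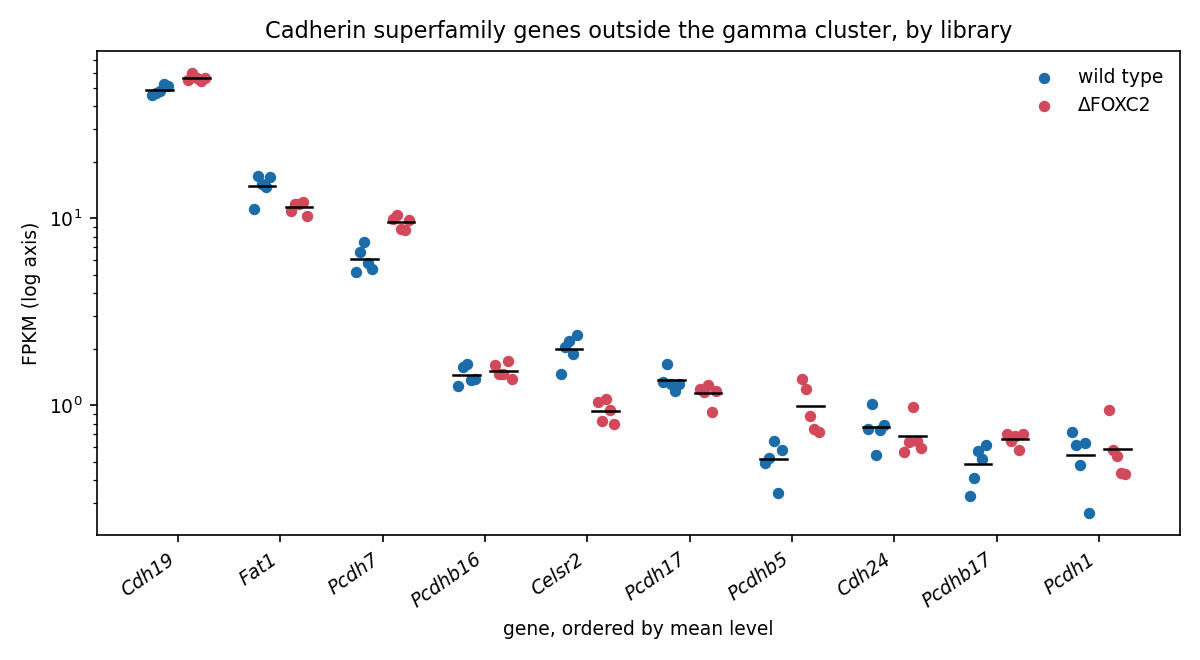
FPKM (log axis) of the 10 members outside the gamma cluster, with 1 point per library, wild type in blue and ΔFOXC2 in red, and a bar at each group mean. Celsr2 sits higher in all 5 wild-type libraries, and Pcdh7, Pcdhb5 and Cdh19 sit lower in all 5.

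Celsr2 encodes a multi-pass adhesion receptor with cadherin repeats that works with Frizzled and VANGL proteins in planar cell polarity. It lies on chromosome 3 (108390851 to 108415552, GRCm38). The wild-type libraries had 1.48, 2.06, 2.21, 1.88 and 2.39 FPKM and the ΔFOXC2 libraries 1.04, 0.829, 1.08, 0.942 and 0.797. The lowest wild-type library was above the highest ΔFOXC2 library. The means were 2.00 ± 0.346 and 0.937 ± 0.124 FPKM (SD, n = 5), and Celsr2 rose 2.02-fold in the wild type (log2 1.01, SE 0.134, limma adjusted p = 0.000121). With a pseudocount of 1 in place of 0.1 the log2 difference was 0.63, still called. The 10 tested genes nearest to it, 5 on each side, had a median log2 difference of 0.10, and 1 of them was called, in the same direction.

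The promoter windows of RefSeq on GRCm38.p6 are shown for Celsr2 and Pcdh7, the called members outside the protocadherin clusters. That of Pcdh17, the only searched member with a match to the forkhead core, is shown too. They are cut to the bases before the first annotated transcribed base, and run 5′ to 3′ on the strand of the gene. Capitals mark CpG dinucleotides in Celsr2 and Pcdh7, and the motif match in Pcdh17.
Celsr2 (chr3:108415580-108415829, - strand): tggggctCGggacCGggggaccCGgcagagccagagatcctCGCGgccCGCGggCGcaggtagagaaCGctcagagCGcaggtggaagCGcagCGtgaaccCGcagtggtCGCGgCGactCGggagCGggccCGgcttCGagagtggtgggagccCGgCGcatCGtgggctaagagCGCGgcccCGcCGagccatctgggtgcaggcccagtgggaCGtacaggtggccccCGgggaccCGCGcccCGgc
Pcdh7 (chr5:57717831-57717966, + strand): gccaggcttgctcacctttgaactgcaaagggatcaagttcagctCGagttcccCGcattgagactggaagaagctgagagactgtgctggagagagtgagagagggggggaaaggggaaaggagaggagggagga
Pcdh17 (chr14:84443313-84443562, + strand): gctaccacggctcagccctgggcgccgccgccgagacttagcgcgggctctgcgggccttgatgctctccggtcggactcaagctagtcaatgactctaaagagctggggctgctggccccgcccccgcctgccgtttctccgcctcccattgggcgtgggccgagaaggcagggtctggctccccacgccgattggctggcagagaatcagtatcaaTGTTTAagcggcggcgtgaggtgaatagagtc

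The letters TAAACA, a core that forkhead factors recognise, were searched on both strands of the 300-base windows, from 250 bases before to 50 after each start. Of 32851 windows of the same length, 13.4% held a match. Members on chromosome 18, among them the called Pcdhb5 and Pcdhgc3, were left out of this search, and Cdh19 had no window. Windows of the other 5 members, Cdh24, Celsr2, Fat1, Pcdh17 and Pcdh7, were searched, and of these the one of Pcdh17 held a match. No other motif was searched. These letters are not in the windows of Celsr2 and Pcdh7, which says nothing of more distant sequence. The Celsr2 window held 40 CpG dinucleotides, at percentile 96.3 of all windows, and the Pcdh7 window held 11, at percentile 59.5. These counts are over the full 300 bases, so they exceed the CpGs marked in the shorter stretches printed above.

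Fat1 encodes a giant cadherin whose tail recruits actin regulators and which influences Hippo signalling. The wild-type libraries had 11.3, 16.8, 15.4, 14.7 and 16.6 FPKM and the ΔFOXC2 libraries 11.0, 11.9, 12.0, 12.2 and 10.3. Wild-type replicate 1 lay within the ΔFOXC2 range and the other 4 lay above it. The log2 difference was 0.37 (SE 0.1003, limma adjusted p = 0.0127), or 1.29-fold, under the threshold. Fat1 lies on chromosome 8 (44935447 to 45052257), where the median log2 difference of the 578 tested genes was 0.36. The 10 tested genes nearest to Fat1 had a median log2 difference of 0.24, with a range of -0.30 to 1.09, and 1 of them was called, higher in the wild type. With each chromosome centred on its own median the Fat1 difference was 0.01 (limma adjusted p = 0.950). Of its exonic bases, 3.1% overlap a gene on the opposite strand. FAT2, FAT3 and FAT4, the DCHS genes and the other CELSR genes are not analysed here.

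Pcdh7 encodes a protocadherin outside the clusters whose cytoplasmic region binds protein phosphatase 1. It lies on chromosome 5 (57717967 to 58133230). The wild-type libraries had 5.19, 6.64, 7.51, 5.79 and 5.36 FPKM and the ΔFOXC2 libraries 9.89, 10.4, 8.83, 8.64 and 9.80. All 5 wild-type libraries were below all 5 ΔFOXC2 libraries. With means of 6.10 ± 0.969 and 9.52 ± 0.761 FPKM (SD, n = 5), Pcdh7 fell in the wild type (log2 -0.64, SE 0.1003, limma adjusted p = 0.000393), a 1.56-fold difference close to the threshold of 1.5. With a pseudocount of 1 the log2 difference was -0.58 (adjusted p = 0.000369) and the fold dropped under the threshold, so the call was lost. The 10 nearest tested genes had a median log2 difference of 0.02 and none of them was called. An antisense gene overlaps 21.1% of the exonic bases of Pcdh7, and whether the authors' counting used strand is not given in the sources used here.

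Pcdh17, which recruits actin-nucleating complexes to cell contacts, had 1.36 ± 0.176 FPKM in wild-type libraries against 1.16 ± 0.139 in ΔFOXC2 cells (SD, n = 5). The wild type ranged from 1.19 to 1.66 and ΔFOXC2 cells from 0.926 to 1.29, so the groups overlapped. The difference was within the spread between libraries (log2 0.21, SE 0.114, limma adjusted p = 0.165). On chromosome 14 the median of tested genes was -0.13, and with chromosomes centred the difference of Pcdh17 was 0.35 (adjusted p = 0.0325), still under 1.5-fold. Pcdh1, an adhesion protein of epithelia, ranged from 0.266 to 0.722 FPKM in wild-type libraries against from 0.431 to 0.947 in ΔFOXC2 cells. Its log2 difference of -0.10 (SE 0.250, adjusted p = 0.779) was smaller than its SE, and its direction turned without wild-type replicate 5 (log2 0.09) or ΔFOXC2 replicate 1 (log2 0.06).

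Cdh19 is a type II classical cadherin known from the Schwann cell lineage and other derivatives of the neural crest. It lies on chromosome 1 (110888326 to 110977584), outside the block left out. The wild-type libraries had 45.8, 46.9, 48.2, 52.4 and 50.9 FPKM and the ΔFOXC2 libraries 55.2, 60.2, 56.3, 54.1 and 56.2. Every wild-type library was below every ΔFOXC2 library, but the groups were separated by a narrow gap. The log2 difference was -0.21 (SE 0.0447, limma adjusted p = 0.00329), or 1.15-fold, and was not called. The median over the 573 tested genes of chromosome 1 was -0.26, and that of the 10 genes nearest to Cdh19 was -0.28. With chromosomes centred the Cdh19 difference was 0.06 (adjusted p = 0.295), with its direction turned. Cdh24, another type II cadherin that binds catenins, had 0.767 ± 0.170 against 0.683 ± 0.167 FPKM (SD, n = 5), and its groups overlapped (log2 0.15, SE 0.175, limma adjusted p = 0.533). With chromosomes centred the Cdh24 difference was 0.29 (limma adjusted p = 0.2245).

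**Figure D2:**
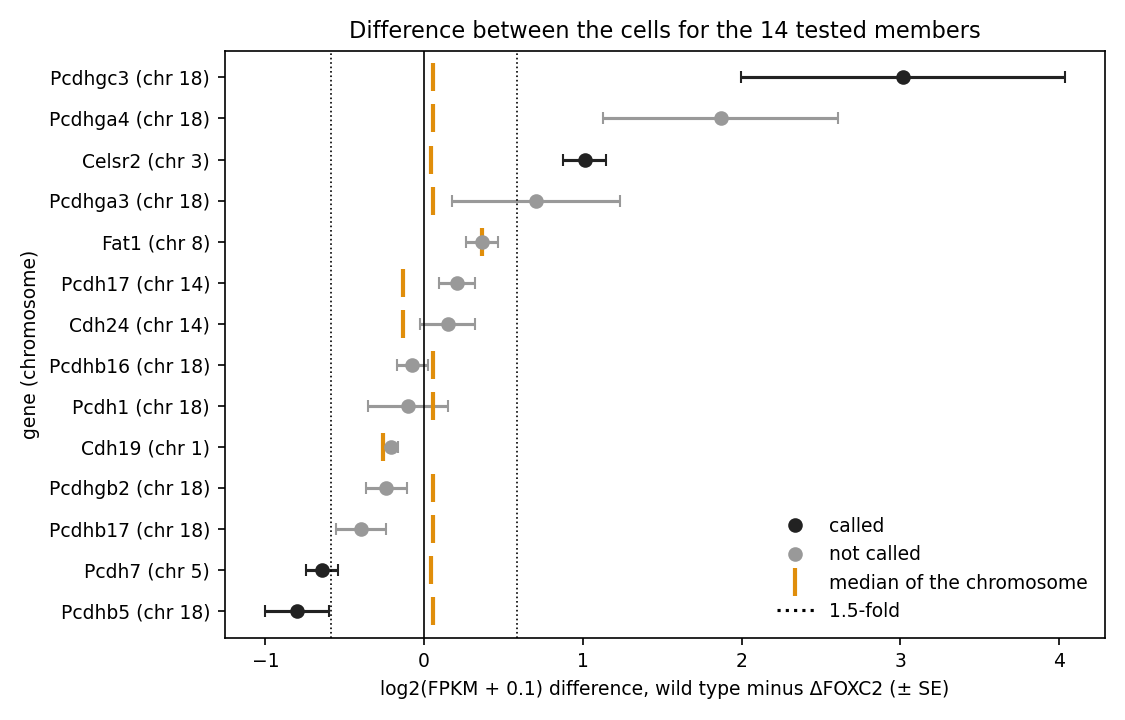
Log2 difference, wild type minus ΔFOXC2, of the 14 tested members with its SE as bars, black where called and grey where not; the orange tick is the median over all tested genes of the same chromosome and the dotted lines mark 1.5-fold. Fat1 and Cdh19 lie beside the medians of chromosomes 8 and 1, whereas Celsr2 (1.01) and Pcdh7 (-0.64) lie away from those of chromosomes 3 and 5 (0.05 each).

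Protocadherins of the beta cluster on chromosome 18 are encoded by large separate exons with no shared constant part, so their values do not trade reads the way gamma values can. At most 0.4% of the 100-base stretches of the 3 beta members' transcripts occurred in transcripts of other genes of the superfamily. Pcdhb5 (37320381 to 37323915) had 0.490, 0.522, 0.644, 0.341 and 0.579 FPKM in wild-type libraries against 1.38, 1.22, 0.876, 0.744 and 0.719 in ΔFOXC2 cells. All wild-type libraries were lower. Pcdhb5 fell 1.74-fold in the wild type (log2 -0.80, SE 0.202, limma adjusted p = 0.00801), from 0.988 ± 0.297 to 0.515 ± 0.114 FPKM (SD, n = 5). With a pseudocount of 1 its log2 difference was -0.38 and the call was lost.

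The other beta genes were not called. Pcdhb17 had 0.329, 0.407, 0.568, 0.520 and 0.611 FPKM in wild-type libraries against 0.704, 0.645, 0.683, 0.578 and 0.699 in ΔFOXC2 cells. Only the highest wild-type library and the lowest ΔFOXC2 library overlapped, and the difference did not pass (log2 -0.40, SE 0.155, limma adjusted p = 0.0596). Pcdhb16 ranged from 1.27 to 1.66 FPKM in wild-type libraries against from 1.38 to 1.73 in ΔFOXC2 cells (log2 -0.07, SE 0.0987, adjusted p = 0.581). Differences between the 3 beta genes were not tested. The median log2 difference of the 270 tested genes of chromosome 18 was 0.06.

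The gamma cluster is built differently. Each of its genes joins a variable exon of its own to constant exons common to the cluster, which encode the shared cytoplasmic end. In the annotation, 3 blocks of 59, 89 and 1968 bases at the end of the cluster (the last from 37839903 to 37841870 on chromosome 18) were carried by at least 90% of its 22 genes. As a result 31.8% to 66.8% of the exonic bases of the 6 gamma members are also exons of other genes of the superfamily, and fragments from the constant exons do not tell which gene they came from. Single values are therefore uncertain and are given library by library.

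Pcdhgb2 held most of the signal of the 6 gamma members. The wild-type libraries had 16.9, 18.04, 17.5, 24.4 and 15.9 FPKM and the ΔFOXC2 libraries 20.2, 21.6, 28.8, 20.4 and 18.6. The groups overlapped and the difference did not pass (log2 -0.24, SE 0.131, limma adjusted p = 0.170). Without wild-type replicate 4, its highest in that group, the log2 difference was -0.34 (adjusted p = 0.0330), under 1.5-fold, and without ΔFOXC2 replicate 3 it was -0.14 (adjusted p = 0.354). Of the 100-base stretches of its transcripts, 47.7% also occurred in other genes of the superfamily.

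The other 5 gamma genes were under 1 FPKM in every ΔFOXC2 library and above it in some wild-type libraries, a level chosen after the values were seen. Pcdhgc3, a gene of the C type at the end of the cluster, had 0.0169, 3.80, 3.50, 0.185 and 5.12 FPKM in wild-type replicates 1 to 5, and 0.0200, 0, 0, 0.0304 and 0.350 FPKM in ΔFOXC2 replicates 1 to 5. Wild-type replicates 2, 3 and 5 were high, while replicates 1 and 4 lay within the ΔFOXC2 range, so the groups overlapped. Pcdhgc3 rose by the test (log2 3.02, SE 1.02, limma adjusted p = 0.0338), with a within-group spread at percentile 99.8 of all tested genes. The size depends on the pseudocount, with a log2 difference of 1.36 at 1 and 4.59 at 0.01. Leaving out any 1 of wild-type replicates 2, 3 and 5 or of ΔFOXC2 replicates 1, 2, 3 and 4 ended the call (log2 2.48 to 2.97, adjusted p = 0.0618 to 0.0797) and with robust variances (adjusted p = 0.0529). Over all alternatives its adjusted p was 0.00411 to 0.0797. A gene on the opposite strand overlaps 28.4% of its exonic bases.

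Pcdhga4 had 0.0800, 3.87, 0.121, 0.654 and 0.944 FPKM in wild-type libraries against 0, 0.121, 0.234, 0.0799 and 0.0445 in ΔFOXC2 cells. Wild-type replicate 2 alone was above 1 FPKM, and the groups overlapped (log2 1.87, SE 0.740, limma adjusted p = 0.0631). It passed without wild-type replicate 1 (adjusted p = 0.0225) or 3 (adjusted p = 0.0338). Without replicate 2 its log2 difference was 1.22 (adjusted p = 0.113), and with pseudocounts of 1 and 0.01 it was 0.72 and 2.83, not called. Pcdhga3 had 0.240, 0.837, 2.70, 0.653 and 0.269 FPKM in wild-type libraries against 0.284, 0.370, 0.670, 0.157 and 0.502 in ΔFOXC2 cells (log2 0.71, SE 0.528, adjusted p = 0.311). There the wild-type library above 1 FPKM was replicate 3, and without it the log2 difference was 0.23.

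The untested pair, Pcdhga12 and Pcdhga2, showed the same kind of single high library. Pcdhga12 had 0, 0.0152, 2.90, 0.315 and 0.0275 FPKM in wild-type libraries against 0.0843, 0.0611, 0.0319, 0.0739 and 0 in ΔFOXC2 cells, with replicate 3 of the wild type apart. Pcdhga2 had 0.410, 0.0798, 0, 0.0217 and 3.25 FPKM in wild-type libraries against 0.256, 0.161, 0.189, 0.206 and 0 in ΔFOXC2 cells, with replicate 5 of the wild type apart. Without the filter on low values neither passed (adjusted p = 0.376 for Pcdhga12 and 0.711 for Pcdhga2).

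**Figure D3:**
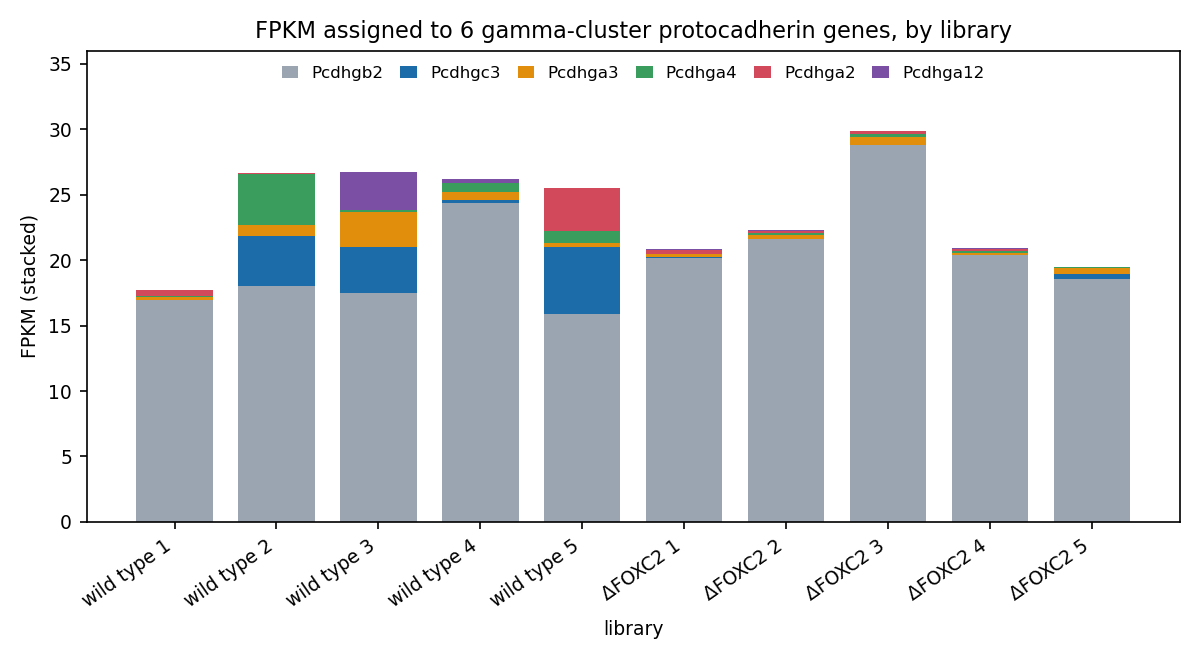
FPKM assigned to the 6 gamma-cluster genes, stacked for each library. Pcdhgb2 (grey) makes up 62.3% to 67.7% of the stack in wild-type replicates 2, 3 and 5 and 93.0% to 97.4% in the other libraries, while the height of the stacks overlaps between groups.

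The FPKM of the 6 gamma members added up to 17.7, 26.6, 26.7, 26.2 and 25.5 in wild-type replicates 1 to 5. In the ΔFOXC2 libraries the sums were 20.8, 22.3, 29.9, 20.9 and 19.5. Only 6 of the 22 annotated gamma genes are in these sums, which are therefore not the level of the whole cluster. The sums overlapped between the groups, with means of 24.6 ± 3.87 and 22.7 ± 4.15 FPKM (SD, n = 5). Wild-type replicate 1 was the lowest of all 10 and ΔFOXC2 replicate 3 the highest. Without Pcdhgb2 the sum was 0.746, 8.60, 9.22, 1.83 and 9.61 FPKM in wild-type libraries against 0.546 to 1.13 in ΔFOXC2 cells. Since the table gives 1 value per gene, fragments on the variable exons and on the constant exons cannot be told apart. The part that the assignment of constant-exon fragments has in these differences was not tested.

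Partner genes of the superfamily were read from 7 lists. By limma, 3 of their 97 tested entries rose in the wild type (3.09%, beside 3.65% of all genes) and 4 fell (4.12%, beside 4.97%), shares near those of all genes. In the list of catenins and adherens junction adaptors, 1 of 14 rose and 1 fell, while 12 had no call, and the median log2 difference was 0.13 against 0.01 over all genes. Vcl, the actin-binding protein vinculin on chromosome 14, had 10.8, 11.6, 11.2, 11.3 and 12.1 FPKM in wild-type libraries against 19.6, 20.4, 19.6, 22.7 and 19.2 in ΔFOXC2 cells. It fell, without overlap (log2 -0.83, SE 0.0526, limma adjusted p = 5.0515e-07). Limd1, a LIM-domain adaptor on chromosome 9, had 13.8, 13.1, 4.55, 12.9 and 5.16 FPKM in wild-type libraries against 3.06 to 3.95 in ΔFOXC2 cells, and rose (log2 1.29, SE 0.305, adjusted p = 0.00568). Wild-type replicates 3 and 5 were close to the ΔFOXC2 libraries and the other wild-type libraries far above.

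The catenins that classical cadherins bind, named here after their values were seen, were not called. Ctnnb1, beta-catenin, had 95.9 ± 2.48 against 87.1 ± 12.9 FPKM (SD, n = 5; log2 0.15, limma adjusted p = 0.189). Ctnna1, alpha-catenin, had a log2 difference of 0.05 (adjusted p = 0.329) and Ctnnd1, p120-catenin, one of 0.02 (adjusted p = 0.811). In the list of desmosomal cadherins and plaque proteins, Pkp2, a desmosomal plaque protein, was the 1 tested gene. It had 0.271 ± 0.101 against 0.998 ± 0.192 FPKM and fell (log2 -1.59, SE 0.204, limma adjusted p = 9.85692e-05). Its wild-type mean was under the filter of 0.5 FPKM, so it was tested only through its higher ΔFOXC2 values. With a pseudocount of 1 its log2 difference was -0.65, still called. The members of that list that are desmosomal cadherins are not analysed here.

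Of 11 planar cell polarity partners of CELSR proteins none was called by limma, with 6 at an unadjusted p of at most 0.05, 6 at an adjusted p of at most 0.05 with any fold, where 41.6% of all genes had one, and a median of 0.11. The most abundant were Prickle1 (log2 0.15, adjusted p = 0.0238) and Scrib (log2 0.16, adjusted p = 0.0193), both cytoplasmic polarity proteins on chromosome 15. The partners did not share 1 direction, with 7 of the 11 above 0. Larger differences, named after their values were seen, went the other way in Prickle2 (log2 -0.46, limma adjusted p = 0.00401) and Vangl1 (log2 -0.39, limma adjusted p = 0.000972). Of 27 entries for FAT and DCHS partners and the Hippo pathway, 1 rose and 0 fell, with a median of -0.07. The one that rose was Wwc2, an upstream Hippo scaffold on chromosome 8, with 8.78 ± 0.382 against 5.63 ± 0.582 FPKM (log2 0.64, SE 0.0715, adjusted p = 3.61149e-05). It was not called with chromosomes centred (log2 0.28) or with a pseudocount of 1 (log2 0.56). Yap1, the transcriptional effector of the pathway, had 13.8 FPKM in each group (log2 -0.01, adjusted p = 0.894), and was chosen after its values were seen.

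Of 14 genes of the WAVE complex and kinases that protocadherins bind, 1 fell and 0 rose, with a median of -0.06. Cyfip2, a WAVE complex subunit, had 17.2 ± 0.853 against 26.3 ± 0.681 FPKM (log2 -0.61, SE 0.0414, limma adjusted p = 8.35993e-07), and with a pseudocount of 1 its log2 difference of -0.58 was under 1.5-fold. Of 19 genes for CTCF, cohesin and silencers, which act on the clustered protocadherin promoters in neurons, 1 rose and 0 fell, with a median of 0.20. Of these 19 genes 16 were above 0, and 11 had an adjusted p of at most 0.05 with any fold, beside 41.6% of all genes. Ctcf, named after its values were seen, was under 1.5-fold (log2 0.52, limma adjusted p = 4.73e-06). Mau2, part of the cohesin loader and on chromosome 8, had 4.54 ± 0.183 against 2.87 ± 0.164 FPKM (log2 0.64, SE 0.0597, adjusted p = 8.49161e-06). Its call too was lost with chromosomes centred (log2 0.29) and with a pseudocount of 1 (log2 0.52). Of 11 proteases that cleave cadherins 1 fell and 0 rose, with a median of -0.13. Aph1c, a gamma-secretase subunit, had 9.67 ± 1.28 against 15.1 ± 1.38 FPKM (log2 -0.64, SE 0.0912, adjusted p = 0.000207), and as 1 of several similar subunit genes its value is uncertain.

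**Figure D4:**
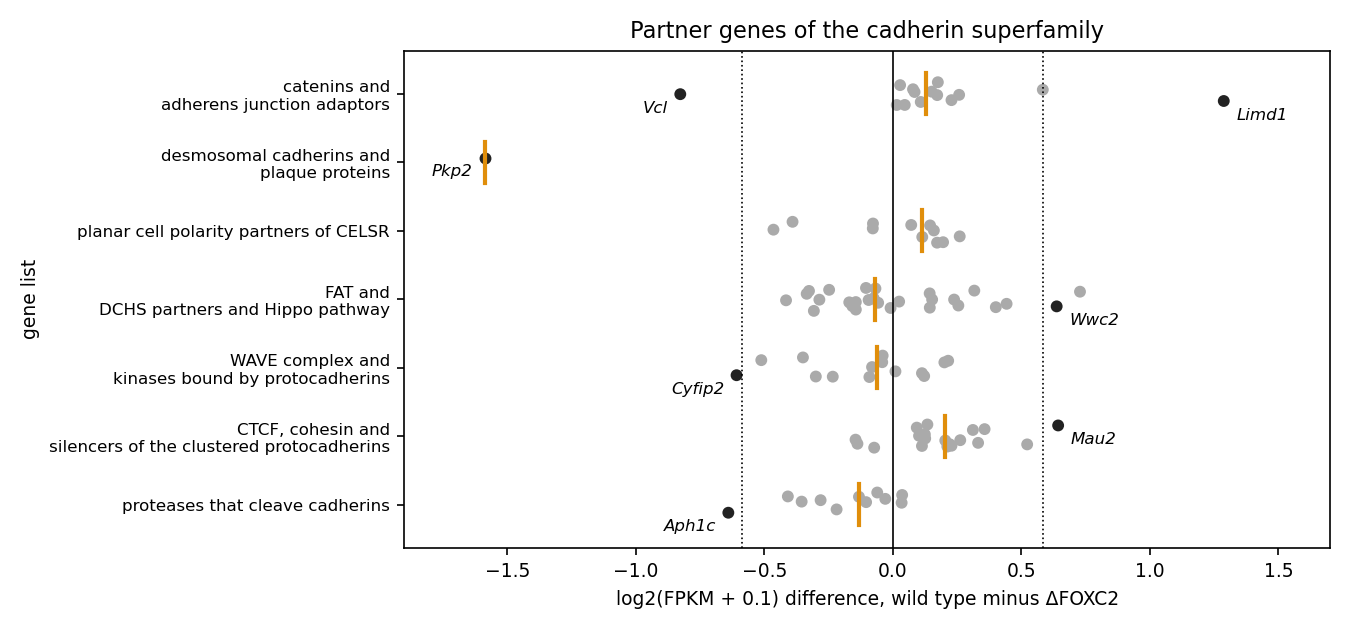
Log2 difference, wild type minus ΔFOXC2, of every tested gene in 7 partner lists, black and named where called and grey where not; orange bars are list medians and dotted lines mark 1.5-fold. The list medians other than that of the single desmosomal gene lie between -0.13 and 0.20.

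The labelled cell type was read from markers. All 9 melanocyte markers were tested, and their summed FPKM was 3300 to 3797 in the wild type and 3982 to 4398 in ΔFOXC2 cells. All 9 were lower in the wild type with a limma adjusted p of at most 0.05, which 41.6% of all genes had in either direction. Only 1 of the 9 was called, the melanin enzyme gene Tyr (log2 -0.71), beside 4.97% of all genes called lower. None of the 11 epithelial or 8 endothelial markers was analysed. Of 10 leukocyte markers 3 were tested, with a sum of 1.58 to 2.08 FPKM in wild-type libraries against 3.70 to 5.95 in ΔFOXC2 cells. Lyz2 (log2 -2.36) and Cd68 (log2 -0.94) fell, and Fcer1g (log2 -0.58, limma adjusted p = 0.0214) was not called. All 3 were low, with group means of 0.386 to 2.33 FPKM. The wild-type mean of Lyz2 was under the filter of 0.5 FPKM, so Lyz2 was tested only through its higher ΔFOXC2 values. Of 10 neuronal markers 1 was tested, the tubulin gene Tubb3, which rose (log2 0.70) and lies in the distal block of chromosome 8 left out of the members. Of 8 fibroblast markers 1 was tested, Col1a2 (log2 0.25, limma adjusted p = 0.153). Bulk values do not tell which cells expressed these markers. Any relation of the markers to the differences of Pcdh7, Celsr2 and the clustered protocadherins was not tested.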

How the data were processed

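Per the labels' protocols, poly(A) RNA was made into strand-specific libraries with a dUTP kit and read for 150 cycles from both ends. FastQC, cutadapt, HISAT2, StringTie and the build GRCm38 are named, without versions, per the submitters' processing notes. The authors deposited FPKM, in 1 table of protein-coding genes without low genes; depth is unknown, since low values shared no step (at most 2 of 259 low genes had 1 common ratio in any pair of libraries). Differences were fitted with limma 3.58.1 in R 4.3.3 (two-sided; lmFit and trended eBayes; no covariates) on log2(FPKM + 0.1) over 10570 genes, those averaging 0.5 FPKM or more. The fit was tested on simulated data. Fragments shared between genes were judged from exons and transcripts of GENCODE M21, and promoter windows are those of RefSeq. The members and lists were chosen with earlier results of these data known. All members are accounted for; of each partner list the rule took up to 2 called genes per direction, or the 2 most abundant where none was called. Alternatives were other pseudocounts, filters, scalings and variance models, a replicate block and leaving out each library. Same-numbered libraries of the groups were not treated as paired.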

Additional observations from a re-analysis of the deposited data

Results flagged for a closer look

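In 11 of 62 groups of 5 libraries, 1 library stood apart from the other 4 by Dixon's criterion at 95%; chance gives about 1 in 20 groups, and the groups within the gamma cluster are not independent of each other. Most concern the gamma cluster. In the wild type, replicate 3 stood apart for Pcdhga12 (2.90 FPKM) and Pcdhga3 (2.70), replicate 5 for Pcdhga2 (3.25), replicate 2 for Pcdhga4 (3.87) and replicate 4 for Pcdhgb2 (24.4). The sum over the 6 gamma members was apart in wild-type replicate 1 (17.7, low) and in ΔFOXC2 replicate 3 (29.9, high), and Pcdhgc3 in ΔFOXC2 replicate 5 (0.350). Outside the cluster, ΔFOXC2 replicate 3 was apart for Cdh24 (0.976) and ΔFOXC2 replicate 1 for Pcdh1 (0.947). Among the partner genes, 1 wild-type library was apart for Scrib (24.2 FPKM).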

How the results depend on the processing

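The calls of Celsr2 held under all 19 alternatives that could be run for it, with a log2 difference of 0.63 to 1.11. Those of Pcdh7 and Pcdhb5 were lost only with a pseudocount of 1, and kept their direction throughout. With a pseudocount of 1, 230 genes were called higher and 338 lower in all, 0 members lower and 1 partner gene higher, since that value shrinks low genes. A filter at 2 FPKM removed Celsr2, Pcdhgc3 and Pcdhb5 and left 224 genes called higher, 0 members called higher and 1 lower. With chromosomes centred 1 partner gene was called higher, and Cdh19 turned direction (log2 0.058). With robust variances 1 member was called higher. Leaving out each library gave 1 to 3 members called higher, and a log2 difference of -0.20 to 0.089 for Pcdh1. The replicate block gave 2 members higher and 2 lower, and 390 and 526 genes in all, and changed no call among the 23 genes followed singly. The deviations of same-numbered libraries correlated at -0.12 to 0.14. No values for unlike numbers were set beside them, so they cannot decide whether the numbers pair the libraries. Over 23 genes and 449 recomputed differences, 428 kept direction and call. The unknown depth limits what can be said of members near or under 1 FPKM.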
